A study of Mus with 8 samples.

Results

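The acyl-CoA thioesterase genes Acot1 to Acot8, Acot12 and Acot13 were followed in regenerating mouse livers with and without LKB1. The rule takes them by gene symbol, without measured values, though the family was picked with earlier results of these data known. All 10 were found among the 23185 named genes of the array, each with 1 row. The livers were taken 48 h after partial hepatectomy, an operation that removes part of the liver and sets the remainder growing. The 4 samples of 1 group are labelled Ctrl in the deposited records (Control here), and the 4 of the other group KO_LKB1 with the genotype LKB1 KO. LKB1, the product of Stk11, is the kinase that activates AMPK and the AMPK-related kinases. The operation was shared by both groups, so no unoperated liver enters the comparison. Strain, age, sex, the allele, and the promoter and cell type used to remove LKB1 are not stated in the labels, nor is it said whether each sample came from its own animal. The p-values therefore measure the spread between these samples, which may be technical.

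Acyl-CoA thioesterases split a fatty acyl-CoA into the free fatty acid and coenzyme A (CoA). Acyl-CoA is the activated form in which fatty acids are oxidised, elongated or built into lipids, so these enzymes work against the acyl-CoA synthetases that make it. The type I enzymes (Acot1 to Acot6) are close relatives of one another that work in different compartments: Acot1 in the cytosol, Acot2 in mitochondria, Acot3 to Acot6 in peroxisomes. The type II enzymes (Acot7, Acot8, Acot12 and Acot13) share a different protein fold. In liver, Acot1 to Acot4 are known for their induction by fasting and by drugs that activate PPAR-alpha, the nuclear receptor of fatty acid catabolism.

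Values are log2 expression as deposited, normalised by the authors. Array medians lay at 3.75 to 3.96, and pairs of arrays correlated at 0.960 to 0.988. Stk11 was lower in all 4 LKB1 KO arrays (3.97 to 4.84) than in the Control arrays (6.46 to 6.76), a difference of -2.39 (SE 0.19, adjusted p = 0.000453). LKB1 KO 2 and Control 4 had the lowest mean correlations with their own groups, 0.974 and 0.976. Liver markers were bright: the 13 measured hepatocyte genes had a median level of 11.7, and the albumin gene Alb lay at 12.38 ± 0.09 in Control (SD, n = 4). At an unadjusted p under 0.05, which stands beside some counts further on, 13.4% of all named genes passed. A level is weighed here against 1354 olfactory and vomeronasal receptor genes, 95% of which had mean levels under 3.73.

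Acot1 and Acot2 rose in the LKB1 KO livers, 4.22-fold and 3.17-fold, and none of the 10 thioesterases fell. The neighbouring type I genes Acot3 and Acot4 stood 1.01 and 0.74 log2 units higher on average without passing the test. Differences of the type II genes lay between -0.12 and 0.37. In all, 2 of 10 passed the threshold (limma, adjusted p under 0.05 over all named genes), against 1.98% of all 23185 genes in either direction (0.487% higher and 1.49% lower in LKB1 KO). The median difference of the 10 was 0.34 log2 units, beside 0.016 over all genes, and 9 of the 10 had a higher mean in LKB1 KO, beside 52.9% of all genes. Those 9 include Acot5 and Acot6, under 3.73 on all 8 arrays, and the small differences of Acot8 (0.08) and Acot13 (0.09). The median lies between the differences of Acot5 and Acot7, so it does not show a rise of the whole family. With single arrays left out, 1 to 3 of the 10 passed: Acot1 lost its call without 6 of the 8 arrays, as given next, and Acot3 gained one without Control 3.

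**Figure D1:**
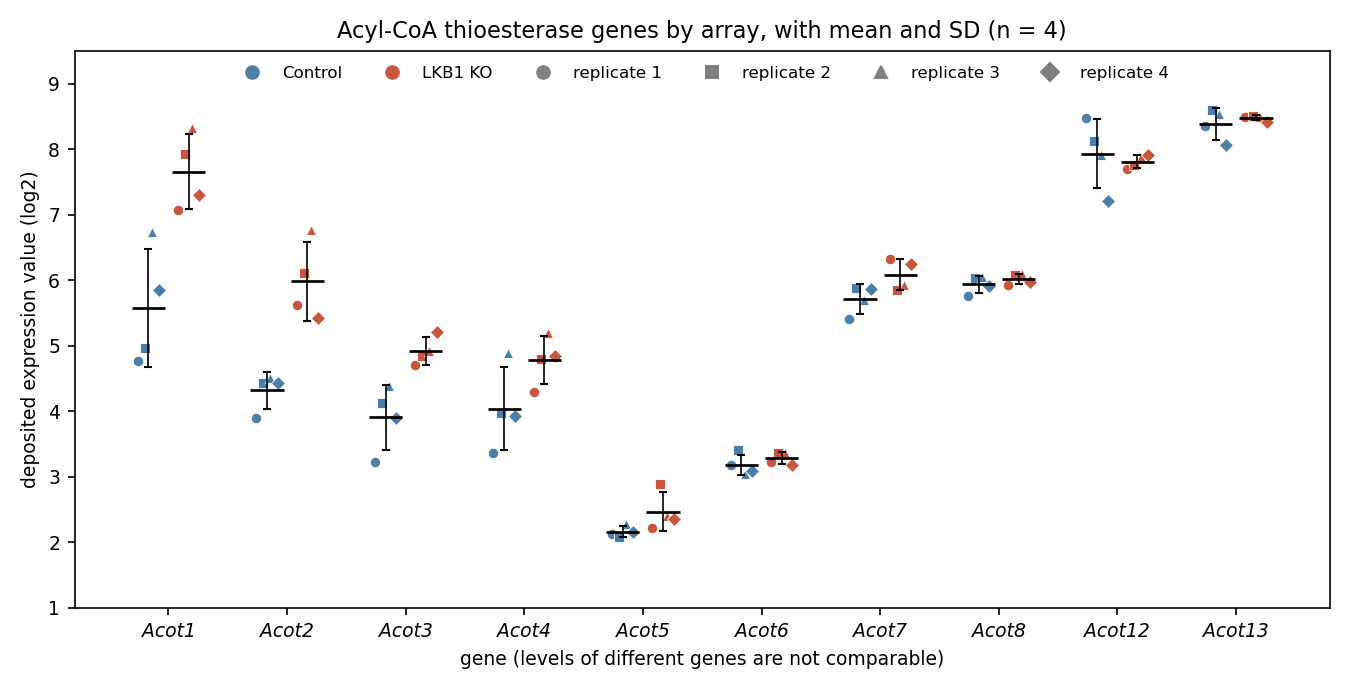
Deposited log2 values of the 10 thioesterase genes on each of the 8 arrays, with Control in blue, LKB1 KO in red, a marker shape for each replicate number, and black bars for the mean and SD (n = 4). The LKB1 KO arrays lie above every Control array for Acot1, Acot2 and Acot3, and the groups overlap for the other genes.

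Acot1, the cytosolic long-chain acyl-CoA thioesterase, had the larger of the called differences. It read 4.77, 4.96, 6.73 and 5.85 on the Control arrays and 7.08, 7.93, 8.32 and 7.30 on the LKB1 KO arrays, replicates 1 to 4. The groups did not overlap, but Control 3 came within 0.35 log2 units of the lowest LKB1 KO array. The Control arrays alone spanned 1.96 log2 units. The means were 5.58 ± 0.90 in Control and 7.65 ± 0.57 in LKB1 KO (SD, n = 4), a difference of 2.08 (SE 0.41, 95% confidence interval 1.16 to 2.99, adjusted p = 0.0309). Leaving out any 1 array other than Control 3 or Control 4 ended the call, with differences from 1.81 to 2.27 and adjusted p up to 0.0984. Without Control 3 the difference was 2.46.

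Acot2 is the mitochondrial counterpart of Acot1 and very similar to it. It read 3.90, 4.44, 4.51 and 4.43 on the Control arrays and 5.62, 6.11, 6.77 and 5.42 on the LKB1 KO arrays, replicates 1 to 4. The lowest LKB1 KO array stood 0.91 log2 units above the highest Control array, so the groups were farther apart than for Acot1. Control averaged 4.32 ± 0.28 and LKB1 KO 5.98 ± 0.60 (SD, n = 4). They differed by 1.66 (SE 0.27, 95% confidence interval 1.06 to 2.26), with an adjusted p of 0.0123. The call held without each single array (1.40 to 1.85, adjusted p up to 0.0415) and was lost when LKB1 KO 2 and Control 4 were left out together (1.66, adjusted p = 0.0520). Such similar genes can share probe signal. The probe sequences were not used here, so the values of Acot1 and Acot2 are uncertain as separate measurements.

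Acot3 and Acot4 encode peroxisomal enzymes, the former acting on long-chain acyl-CoA and the latter on succinyl-CoA and other dicarboxylic acyl-CoA. Acot3 read 3.23, 4.12, 4.38 and 3.89 on the Control arrays and 4.71, 4.84, 4.92 and 5.21 on the LKB1 KO arrays, replicates 1 to 4. The groups did not overlap, as for 8.84% of all genes, and the gap between them was 0.33 log2 units. Its difference of 1.01 (SE 0.23, 95% confidence interval 0.51 to 1.52) lay just short of the threshold, with an adjusted p of 0.0512. It passed without Control 3 (1.17, adjusted p = 0.0333), with dim genes filtered out (1 in 3 genes, those of lowest mean level; adjusted p = 0.0373), with a trended and robust prior (0.0434) and with array weights (0.0364). Acot4 measured 3.36, 3.97, 4.89 and 3.93 on the Control arrays and 4.30, 4.79, 5.19 and 4.84 on those of LKB1 KO, in the same order. Control 3 lay above 3 of the 4 LKB1 KO arrays of Acot4. Control 1 lay under 3.73 for both genes, so the sizes of their differences are uncertain. The Acot4 difference of 0.74 (SE 0.29, 95% confidence interval 0.09 to 1.39) had an adjusted p of 0.294.

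Acot5 and Acot6, the remaining peroxisomal type I genes, lay in the range of the olfactory receptor genes, under 3.73 on all 8 arrays. Acot5 encodes a medium-chain thioesterase, and Acot6 an enzyme for branched-chain acyl-CoA. Acot5 ranged from 2.09 to 2.28 in Control and from 2.22 to 2.89 in LKB1 KO (difference 0.30, SE 0.16, adjusted p = 0.447). Acot6 ranged from 3.04 to 3.40 in Control and from 3.18 to 3.36 in LKB1 KO (0.10, SE 0.13, adjusted p = 0.798). At such dim levels these values cannot show whether either gene changed.

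The type II genes lay above 3.73 on all 8 arrays, and none passed the test. Acot7, a cytosolic thioesterase best known from brain, read 5.41, 5.89, 5.69 and 5.87 on the Control arrays and 6.32, 5.85, 5.92 and 6.25 on the LKB1 KO arrays, replicates 1 to 4. Its difference was 0.37 (SE 0.16, 95% confidence interval 0.02 to 0.73, adjusted p = 0.348), and 3 of the 4 LKB1 KO arrays stood above every Control array. Acot8, a peroxisomal thioesterase of broad chain length that also takes bile acid CoA esters, stayed within 0.33 log2 units over all 8 arrays. Acot8 had means of 5.94 ± 0.13 and 6.02 ± 0.08 (SD, n = 4) and a 95% confidence interval of -0.19 to 0.34 for its difference.

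Acot12, the cytosolic thioesterase that acts on acetyl-CoA, was the single member with a lower mean in LKB1 KO. It read 8.47, 8.13, 7.91 and 7.21 on the Control arrays and 7.70, 7.75, 7.87 and 7.91 on the LKB1 KO arrays, replicates 1 to 4. The LKB1 KO arrays lay inside the Control range, and Control 4 was the lowest of all 8. The difference of -0.12 (SE 0.23, 95% confidence interval -0.63 to 0.39, adjusted p = 0.879) turned to 0.059 without Control 1. Acot13, also called Them2, is a thioesterase found with mitochondria that binds the phosphatidylcholine transfer protein Pctp. Acot13 measured between 8.06 and 8.60 in Control and between 8.42 and 8.51 in LKB1 KO. Its difference was 0.09 (SE 0.14, 95% confidence interval -0.22 to 0.40, adjusted p = 0.846) and turned to -0.019 without Control 4, its lowest array.

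**Figure D2:**
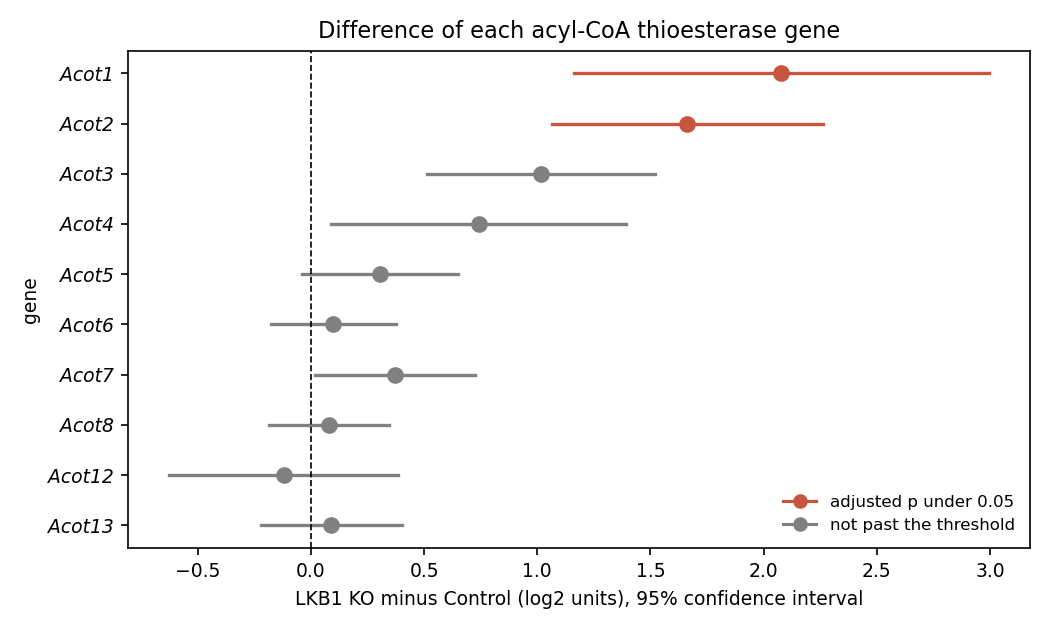
Difference between LKB1 KO and Control for each thioesterase gene in log2 units, with its 95% confidence interval from limma and red for an adjusted p under 0.05. The intervals of Acot1 (1.16 to 2.99) and Acot2 (1.06 to 2.26) are red, and those of Acot5, Acot6, Acot8, Acot12 and Acot13 include 0.

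Whether members changed by unequal amounts was tested on the difference between their values within each array, for all 45 pairs. In 17 pairs the exact two-sided permutation p was 0.0286, the smallest that 4 against 4 arrays can give, and the adjusted p over the 45 pairs was then 0.0756, so no pair passed 0.05. Those 17 pairs were Acot1 or Acot2 with each of Acot4, Acot5, Acot6, Acot8, Acot12 and Acot13, Acot2 with Acot7, and Acot3 with Acot6, Acot8, Acot12 and Acot13. The pairs with Acot5 or Acot6 set a gene against one too dim to show a change, so they say nothing of unequal change. The mean difference of Acot1 was 1.34 log2 units larger than that of Acot4, and that of Acot2 0.92 larger. Neither pair passed, and the size of the Acot4 difference is itself uncertain, with Control 1 under 3.73. Acot1 and Acot2 differed in their change by 0.42 (exact permutation p = 0.314).

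The type I genes lie side by side on the chromosome. On the GRCm38.p6 assembly of RefSeq, the protein-coding genes follow one another in the order Riox1, Acot2, Acot1, Acot4, Acot3, Acot5, Acot6 and Dnal1. Along that order the differences were 0.17 for Riox1, 1.66 for Acot2, 2.08 for Acot1, 0.74 for Acot4, 1.01 for Acot3, 0.30 for Acot5, 0.10 for Acot6 and 0.44 for Dnal1. Within the run, the called differences were those of the adjoining Acot2 and Acot1. The flanking genes were chosen after the thioesterase values had been seen. Riox1, a histone demethylase gene, had an adjusted p of 0.655, and Dnal1, a dynein light chain gene whose Control arrays lay at 2.00 to 2.41, one of 0.366.

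Samples of the same group also differed along the run. Among the Control arrays, Control 1 was the lowest and Control 3 the highest for Acot1, Acot2, Acot3 and Acot4 alike. Among the LKB1 KO arrays, LKB1 KO 3 was the highest for Acot1, Acot2 and Acot4, and LKB1 KO 4 for Acot3. The lowest was LKB1 KO 1 for Acot1, Acot3 and Acot4, and LKB1 KO 4 for Acot2. Acot1 and Acot4 thus had the same lowest and highest replicate number in both groups.

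**Figure D3:**
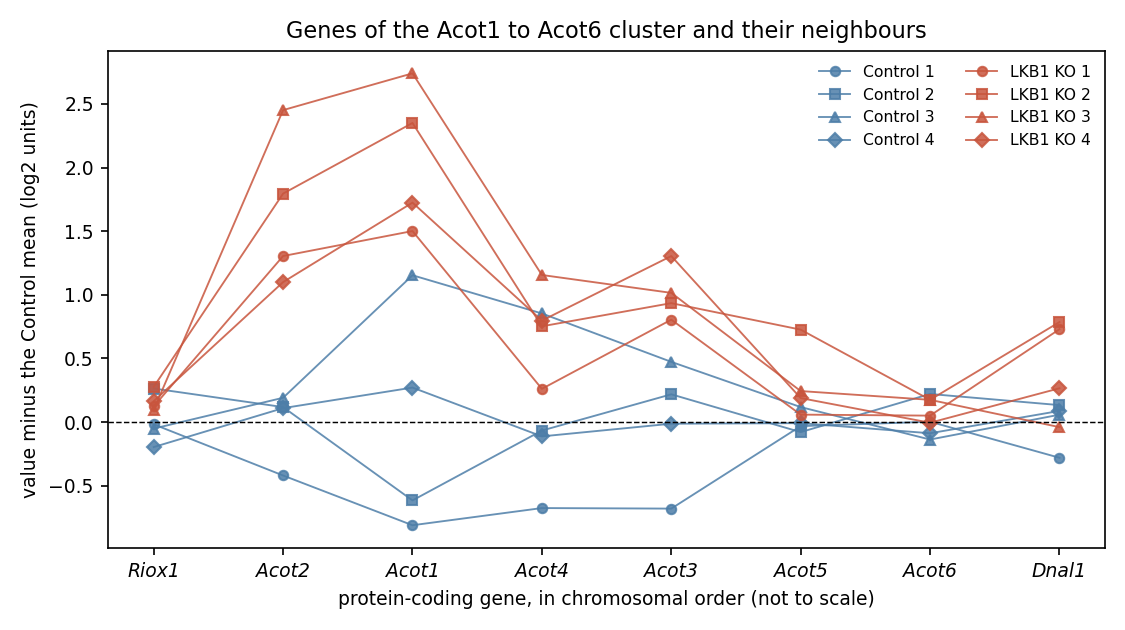
Value of each gene minus its Control mean, in log2 units, for the 6 type I thioesterase genes and the gene on each side, in chromosomal order and not to scale, with 1 line per array (Control blue, LKB1 KO red). The LKB1 KO lines stand above all Control lines at Acot2, Acot1 and Acot3, Control 3 reaches into the LKB1 KO lines at Acot4, and the lines come together at Acot6.

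Genes with the most similar pattern were sought by Pearson correlation over the 8 arrays. For Acot2 these were Kiss1 (r = 0.979), which encodes kisspeptin, the homeobox gene Cux2 (0.966) and the olfactory receptor gene Olfr44 (0.962). For Acot1 they were the zinc finger gene Zfp970 (0.971), Noct (0.971), which encodes the rhythmic phosphatase nocturnin, and Frat2 (0.967). These values are a description over 8 arrays from 2 groups, picked from all named genes, and a shared group difference raises each of them. Of the 6 genes, Kiss1 (3.24, adjusted p = 0.00182) and Cux2 (0.82, adjusted p = 0.0188) rose. Dropping Control 1 or LKB1 KO 3 ended the call of Cux2 (highest adjusted p 0.0605).

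Among 13 other measured thioesterase genes, 1 fell and 0 rose in limma, beside 1.49% lower and 0.487% higher of all genes. In this list 2 had an unadjusted p under 0.05, near the share of all genes. The median difference was -0.06 and the highest 0.24. The gene that fell was Baat, whose product joins bile acids to taurine or glycine and is related in sequence to the type I thioesterases. Baat lay between 8.35 and 8.55 in Control and between 7.64 and 7.90 in LKB1 KO. Its difference was -0.63 (SE 0.12, adjusted p = 0.0251). Dropping Control 1 or 2, or replicate 1, 3 or 4 of LKB1 KO, ended the call of Baat (highest adjusted p 0.0874).

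Of 23 measured acyl-CoA synthetase genes, which act in the opposite direction to the thioesterases, 4 fell and 0 rose. The listed Acsl1 was not measured, and Acsl3 (-0.02), Acsl4 (0.05), Acsl5 (-0.27) and Acsl6 (0.26) were not called. Of all genes, 1.49% were called lower and 0.487% higher. The fallers were the medium-chain synthetase genes Acsm5 (-1.01), Acsm3 (-0.76) and Acsm1 (-0.72), and Slc27a5 (-0.77), which activates bile acids and very long-chain fatty acids. Their adjusted p-values lay between 0.0184 for Acsm3 and 0.0494 for Slc27a5. The median of the list was -0.04. These calls were close to the threshold: that of Acsm3 ended when Control 1 or 2, or replicate 1 or 4 of LKB1 KO, was dropped (highest adjusted p 0.0666), and those of Acsm1, Acsm5 and Slc27a5 when any array except Control 4 was dropped (highest adjusted p 0.110, 0.140 and 0.140). Median centring left 2 of the 4 calls, ending those of Acsm5 (adjusted p = 0.0515) and Slc27a5 (0.0625).

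Among 15 genes of CoA synthesis and breakdown, Nudt19 rose and 0 fell, beside 0.487% higher and 1.49% lower of all genes. Nudt19 and Nudt7 encode peroxisomal hydrolases that degrade CoA. Nudt19 read 5.94, 5.98, 6.50 and 6.06 on the Control arrays and 7.20, 7.24, 7.14 and 7.56 on the LKB1 KO arrays, replicates 1 to 4. The groups were well apart, with a difference of 1.17 (SE 0.16, adjusted p = 0.00530) that kept its call without each single array. Nudt7, singled out after its values had been seen, stood at -1.08 (SE 0.28, adjusted p = 0.0915), and at an adjusted p of 0.0339 with array weights. Without Control 4, whose value of 8.83 was the lowest Control value of Nudt7, it also passed.

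In the acyl-CoA and fatty acid binding list, 3 of 17 fell and 0 rose, beside 1.49% lower and 0.487% higher of all genes. Fabp5, a fatty acid binding protein gene, differed by -2.80 (SE 0.26, adjusted p = 0.000947). It read 3.23 on LKB1 KO 2 and 3.61 on LKB1 KO 3, under 3.73, so the size of its difference is uncertain. The lipid transfer gene Stard5 differed by -1.04 (SE 0.15, adjusted p = 0.00723), and the sterol carrier and peroxisomal thiolase gene Scp2 by -0.58 (SE 0.12, adjusted p = 0.0339). Dropping any array except Control 3 ended the call of Scp2 (highest adjusted p 0.110). Pctp, the partner of Acot13, was looked up after the values had been seen and stood at 1.17 (SE 0.38, adjusted p = 0.186). Its LKB1 KO arrays (7.68 to 8.42) lay above its Control arrays (5.63 to 7.61).

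Crat rose and Scp2 fell among the fatty acid oxidation genes. None of 22 mitochondrial beta-oxidation genes passed in limma, and 4 had an unadjusted p under 0.05, beside 13.4% of all genes. The smallest p-values were those of Acadsb, a branched-chain acyl-CoA dehydrogenase gene (-0.55, adjusted p = 0.0682), and of Acadl, the long-chain acyl-CoA dehydrogenase gene (0.58, adjusted p = 0.124). Acadsb passed without Control 4 and with array weights (adjusted p = 0.0416). Of 23 peroxisomal beta-oxidation genes 2 passed, Crat and Scp2, beside 1.98% of all genes, and 9 had an unadjusted p under 0.05. Crat, the carnitine acetyltransferase gene, moved by 0.88 (SE 0.15, adjusted p = 0.0167), from 6.08 to 6.38 in Control to 6.73 to 7.32 in LKB1 KO. Dropping Control 1 or 2, or replicate 1, 3 or 4 of LKB1 KO, ended the call of Crat (highest adjusted p 0.0597).

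Among 31 measured PPAR-alpha target genes other than the thioesterases, 2 rose and 0 fell, beside 0.487% higher and 1.49% lower of all genes. Their median difference was 0.12, with 19 higher and 12 lower means. An unadjusted p under 0.05 was found for 11 of the 31, beside 13.4% of all genes. The rises were in Crat and in the lipid droplet coat gene Plin2 (0.75, SE 0.15, adjusted p = 0.0347). The call of Plin2 ended when any array except Control 4 or LKB1 KO 2 was dropped (highest adjusted p 0.106) and under median centring (0.0713). Cyp4a10 and Ehhadh, classical targets of the receptor, were singled out after their values had been seen, so they do not stand for the list. Fitm1, G0s2 and Pex11a, named for their opposite direction, stood at -0.55, -0.66 and -0.51. Each had an unadjusted p under 0.05 in limma, and none was called. Cyp4a10, a fatty acid omega-hydroxylase gene, read 6.25, 4.05, 6.84 and 3.16 on the Control arrays and 7.29, 7.95, 9.12 and 7.85 on the LKB1 KO arrays, replicates 1 to 4. Control 4 lay under 3.73, so the size of the Cyp4a10 difference is uncertain. That difference of 2.98 was large beside a Control SD of 1.75 and had an adjusted p of 0.0697. It passed without Control 3, with dim genes filtered out (0.0491) and with array weights (0.0451). Ehhadh, the peroxisomal bifunctional enzyme gene, stood 1.23 higher (SE 0.34, adjusted p = 0.104). As for Acot1, the highest LKB1 KO value of Cyp4a10 and of Ehhadh was that of LKB1 KO 3.

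The transcripts of the receptor itself moved the other way from Acot1 and Acot2. Ppara fell, with readings of 7.41, 6.90, 6.94 and 6.70 on the Control arrays and 5.70, 5.71, 6.15 and 5.43 on the LKB1 KO arrays, replicates 1 to 4. The groups did not overlap, and the difference of -1.24 (SE 0.19, adjusted p = 0.00895) kept its call without each single array. Rxra, its dimerisation partner, fell by 0.69 (SE 0.12, adjusted p = 0.0161); that call ended when replicate 1 or 4 of LKB1 KO was dropped (highest adjusted p 0.0563). Ppargc1a, a coactivator gene of the receptor, rose by 1.34 (SE 0.17, adjusted p = 0.00401). It measured 6.47 to 7.22 in Control and 8.10 to 8.43 in LKB1 KO. In the whole list of 28 receptors and regulators of lipid metabolism, 6 fell and 1 rose, beside 1.49% lower and 0.487% higher of all genes. The median of that list was -0.20. The other falls were in the clock repressor gene Nr1d1 (-1.77), the bile acid receptor gene Nr1h4 (-1.26), the xenobiotic receptor gene Nr1i3 (-1.05) and the hepatocyte transcription factor gene Cebpa (-0.99). Rxra and Cebpa are named beyond the rule for naming list members.

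**Figure D4:**
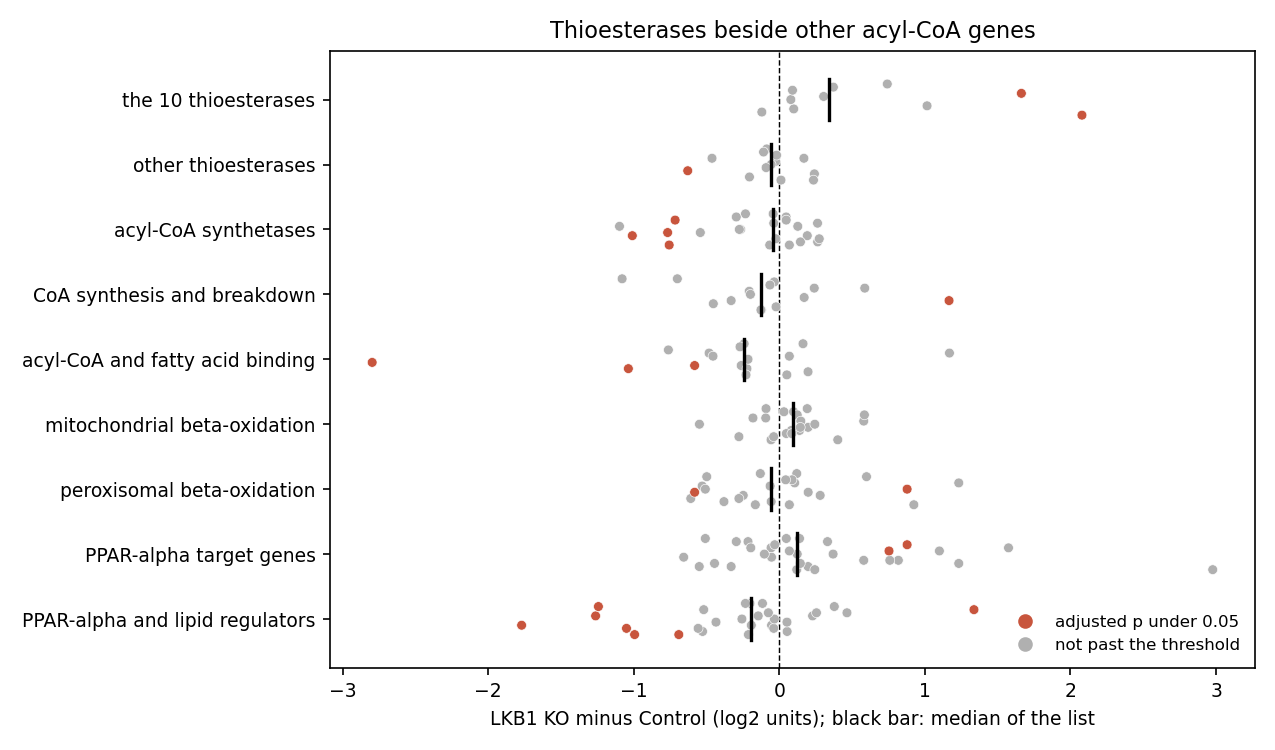
Difference between LKB1 KO and Control in log2 units for each gene of 9 lists, the 10 thioesterases on top, with red points for an adjusted p under 0.05 and a black bar for the median of each list; vertical scatter within a row carries no value. The 2 red thioesterases are Acot1 and Acot2 at the right, while the red points of the synthetase list lie at the left and those of the regulator list lie at the left but for Ppargc1a.

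Markers of other liver cells moved in the same arrays. All 12 sinusoidal endothelial markers had a lower mean in LKB1 KO and 4 fell, beside 1.49% of all genes called lower. Lower means were found for 10924 of all 23185 genes. In limma, 9 of the 12 had an unadjusted p under 0.05, beside 13.4% of all genes. The drop was uneven, from -0.83 for Clec4g to -0.08 for Pecam1. The groups overlapped for Pecam1, Cdh5 (-0.10), Lyve1 (-0.15) and Tek (-0.73), named to show the spread. The summed linear level of the 12 was 1410 to 1721 in Control and 1015 to 1155 in LKB1 KO. All 12 macrophage markers had a lower mean and 1 fell, and 7 had an unadjusted p under 0.05 (sums of 1110 to 1921 and 849 to 1165). The summed level of the 13 hepatocyte markers, of which none passed (4 had an unadjusted p under 0.05), was 40760 to 42780 in Control and 36750 to 38630 in LKB1 KO. None of the 12 stellate, 7 cholangiocyte, 11 lymphocyte, 9 neutrophil or 7 adipocyte markers passed in limma. In that order, 5, 0, 1, 3 and 2 of them had an unadjusted p under 0.05. Lower means numbered 10, 5, 3, 7 and 4 in the same order, and the stellate median difference was -0.27. The summed neutrophil level did not overlap, at 348.8 to 1089 in Control and 225.6 to 334.2 in LKB1 KO. The endothelial and hepatocyte sums did not overlap either. The neutrophil sum mostly follows its brightest genes, S100a8 and S100a9 (Control means 7.06 and 8.30, each -1.07). Ngp (0.42) and Camp (0.28) had higher means in LKB1 KO. Of 5 erythroid markers, 1 fell. The adipocyte gene Adipoq lay between 1.68 and 2.25 on all 8 arrays, in the range of the olfactory receptor genes. It does not stand for its list. Fabp4 read 9.37 on Control 4 and 6.30 to 7.31 on the other Control arrays. Cidec stood 1.20 higher and Pparg 0.53 lower in LKB1 KO, and neither was called. The summed adipocyte level was 168.6 to 778.9 in Control and 195.4 to 273.3 in LKB1 KO. Log2 values have no zero, so no marker can be called absent. In bulk liver, fewer cells of a type and less RNA per cell cannot be told apart, and the part of cell composition in the thioesterase values was not tested.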

How the data were processed

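Total RNA of 8 liver samples was extracted with TRIzol, turned into amplified sense cDNA (Ovation PicoSL) and labelled with biotin, per the labels' protocols. The authors deposited log2 expression values, 1 per row and array; RMA and Partek are named in the submitters' processing notes, without versions. Neither the array design nor the genome build is given in the sources used here. RMA compresses differences between dim probes.

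The platform annotation gave 1 gene symbol to 23185 of the 25206 rows, several to 0 and none to 2021. The Entrez IDs of all 10 thioesterases matched RefSeq. A model with the group as its term was fitted to all 23185 genes with limma 3.58.1 in R 4.3.3 (lmFit, eBayes; two-sided; Benjamini-Hochberg over all of them; threshold 0.05). Differences are LKB1 KO minus Control. The members, gene lists and alternatives were chosen with earlier results of these data known. Named genes are the 10 members, up to 5 called members of each list (otherwise the 2 of smallest p) and the 3 genes most correlated with each called member; exceptions are stated. The number of arrays limits the precision. The fit was tested on simulated data. Alternatives were the replicate block, arrays left out, quantile normalization, median centring, a filter on dim genes, other variance settings, array weights, all rows and a fold of at least 1.5. Nucleotide and protein sequences were not used here.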

Additional observations from a re-analysis of the deposited data

Results flagged for a closer look

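Among 20 groups of 4 arrays (10 genes in 2 groups), 1 held an array that stood apart from the other three by Dixon's ratio, which chance gives in about 1 group of 20. It was Acot2 in Control 1, at 3.90 against 4.43 to 4.51 in the other Control arrays (ratio 0.867, above the 95% critical value). Without that array the difference of Acot2 was 1.52 (adjusted p = 0.0415).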

How the results depend on the processing

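The genes past the threshold numbered 458 (113 higher, 345 lower). They numbered 268 with the replicate number as a block (186 lower), 97 without moderation of variances (13 higher, 84 lower) and 721 with array weights (254 higher), and quantile normalization gave 198 higher. With single arrays left out the count ran from 213 to 491 (42 to 144 higher, 164 to 382 lower). Of the thioesterases, 2 passed; 1 to 3 passed with single arrays left out, 2 with the replicate block, and 0 without moderation or without LKB1 KO 2 and Control 4 together.

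Acot1 and Acot2 lost their calls without LKB1 KO 2 and Control 4 together (2.08, adjusted p = 0.0969, and 1.66, adjusted p = 0.0520) and without moderation (2.08, adjusted p = 0.206, and 1.66, adjusted p = 0.126). With single arrays left out they ran from 1.81 to 2.46 and from 1.40 to 1.85, and Acot3 from 0.79 to 1.17. Acot3 passed at 1.01 with dim genes filtered out or a trended and robust prior, and at 0.99 with array weights. Acot12 ran from -0.36 to 0.059 and Acot13 from -0.019 to 0.16 with single arrays left out, and Acot13 was -0.030 without LKB1 KO 2 and Control 4. Acot5 was too dim to remain under that filter. The cause of these changes was not tested.

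The replicate numbers did not pair the samples (correlations of deviations of same-numbered arrays from -0.11 to 0.18, and 2 of 8 arrays closest to their own number). Acot1 and Acot4 nevertheless had the same lowest and highest replicate number in both groups. With the replicate block the adjusted p in limma was 0.0152 for Acot1, 0.0155 for Acot2, 0.0561 for Acot3 and 0.0806 for Acot4. Among the other named genes, it ended 8 calls, which included all 4 of the acyl-CoA synthetase list (0 left) and those of Baat, Plin2, Rxra and Scp2. It gave 3, those of Ehhadh (0.0434), Cyp4a10 (0.0460) and Noct (0.0442), and the fit without moderation ended 15. The arrays' number and the dimness of Acot5 and Acot6 limit what can be seen.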
